A study of Homo sapiens with 6 samples.

Results

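Receptors and signaling adaptors by which phagocytes sense microbes and antibody-coated particles were examined as a list of 8 named genes: FPR1, CD14, TLR2, TLR4, MYD88, FCGR2A, FCER1G and TYROBP. The genes were looked up by symbol, and 6 of the 8 had a row, out of 17023 symbols that occurred once and had a value in all groups. TLR2 and TLR4 had no row and were not analysed here. RNA-seq had been carried out on 6 samples of K562, a human leukemia line of erythroid character, with 2 replicates for each of 3 stable lines made with a PiggyBac transposon. CTR cells carried the empty vector, CEBPA cells Tet-inducible wild-type C/EBPα, a transcription factor of granulocyte development, and P30 cells Tet-inducible C/EBPα-p30, the shorter isoform without the N-terminal transactivation domain. The paper reports both isoforms, full-length and shorter, by western blot in the CEBPA line, so CEBPA vs P30 does not contrast pure isoforms. Cells of each line were given 200 ng/ml doxycycline, which switches on the transgene, for 48 h. Whether a line was 1 clone or a pool is not given in the sources used here, no sample without doxycycline was analysed here, and an effect of the transgene and a difference between separately made lines cannot be told apart.

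Phagocytes recognize microbes directly through formyl peptide and Toll-like receptors, and indirectly through Fc receptors, which bind the constant part of antibodies. FPR1 is a G protein coupled receptor for formylated bacterial peptides that guides neutrophils. CD14 binds bacterial lipopolysaccharide and hands it to TLR4, and MYD88 is the adaptor that carries the signal of most Toll-like receptors into the cell. FCGR2A is an activating IgG receptor with an immunoreceptor tyrosine-based activation motif (ITAM) in its own tail, whereas other receptors borrow the ITAM of the small adaptors FCER1G, the common Fc receptor γ chain, and TYROBP, also called DAP12.

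The authors deposited a single FPKM for every gene in a line, that is, its fragments scaled by the length of the transcript and by the fragments mapped, with both replicates pooled. They therefore carry no SD, and no p-value or replicate check can be had from them. Depth per sample is unknown from these values, so differences are descriptions of pooled libraries. The paper itself reports Cuffdiff calls on the duplicates, a correlation between replicates and a range of read pairs, which were not used here. Differences are given on the log2(FPKM + 1) scale, which understates changes of low genes, and a gene is called higher or lower when it differed at least 2-fold on this scale, among genes over 1 FPKM in either group of the pair. FPR1 and CD14 were listed in the 2 tables that contain CEBPA but not in that of CTR and P30, and their CTR and P30 values were taken from those tables. K562 identity was checked with 8 erythroid markers, of which 6 had a row, and all 6 were over 1 FPKM in each group and at least 2-fold lower in CEBPA vs CTR, with a summed level of 1760 FPKM in CTR cells, 1154 in P30 cells and 582 in CEBPA cells. In a bulk sample, fewer cells of a type and less RNA per cell cannot be told apart.

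FPR1 showed the widest range of the 6 genes. In an annotation later than the authors' it occupies chromosome 19 from 52248425 to 52307368, minus strand (GRCh37, the sequence of hg19, which the authors used). It had 0.105 FPKM in CTR cells, 0.191 in P30 cells and 13.0 in CEBPA cells. The gene was thus near the bottom of the range in CTR and P30, where only 8.84% and 12.6% of genes were lower, and above 60.8% of genes in CEBPA. The log2 difference was 3.66 for CEBPA vs CTR and 3.55 for CEBPA vs P30. Of 13673 genes compared in CEBPA vs CTR, 156 (1.14%) were as much higher or more, FPR1 included.

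CD14 had the same order of levels on a smaller scale. It occupies chromosome 5 from 140011313 to 140013285, minus strand. The gene had 0.215 FPKM in CTR cells, 0.228 in P30 cells and 1.10 in CEBPA cells, so that it barely passed 1 FPKM in a single group. Its log2 difference of 0.79 in CEBPA vs CTR did not reach 2-fold on this scale, although the plain ratio of the FPKM was 5.12. With a pseudocount of 0.1 the difference was 1.93, so the call for CD14 depends on the pseudocount.

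FCGR2A stood apart from the other genes in P30. It occupies chromosome 1 from 161475220 to 161493803, plus strand. The level was 23.2 FPKM in CTR cells, 77.2 in P30 cells and 58.8 in CEBPA cells, and so highest in the P30 line. Already in CTR it exceeded 73.6% of genes. Its log2 difference was 1.69 in P30 vs CTR, where 46 of 12395 genes (0.371%) were as much higher or more, and 1.30 in CEBPA vs CTR. Between CEBPA and P30 the difference was -0.39. FCGR2A has near-identical copies in FCGR2B and FCGR2C, which were not analysed here, and its level is uncertain as far as reads were shared among them. A later annotation also places 2 noncoding RNAs on the same strand over its exons.

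FCER1G, the γ chain, was low in CTR and P30 and higher in CEBPA. It occupies chromosome 1 from 161185024 to 161190489, plus strand. The level was 0.553 FPKM in CTR cells, 0.231 in P30 cells and 3.84 in CEBPA cells. Unlike the other 5 genes it was lower in P30 than in CTR, by a log2 difference of -0.33, with both values below 1 FPKM. The log2 difference was 1.64 for CEBPA vs CTR and 1.98 for CEBPA vs P30.

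TYROBP and MYD88 were present in each group and varied little. TYROBP, on chromosome 19 from 36395303 to 36399197 (minus strand), had 7.07 FPKM in CTR cells, 9.18 in P30 cells and 8.63 in CEBPA cells. Its 3 values lay close together, with log2 differences of 0.34 in P30 vs CTR and 0.26 in CEBPA vs CTR. MYD88, on chromosome 3 from 38180043 to 38184515 (plus strand), had 28.4 FPKM in CTR cells, 35.3 in P30 cells and 46.7 in CEBPA cells. Its log2 difference was 0.30 in P30 vs CTR and 0.70 in CEBPA vs CTR, short of 2-fold in both.

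**Figure D1:**
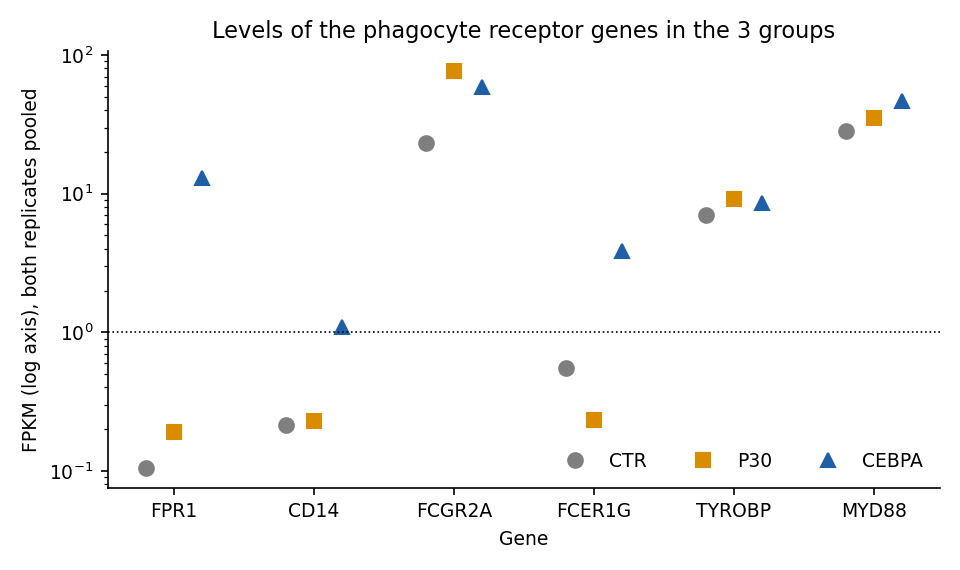
FPKM of each gene (log axis) in CTR (circles), P30 (squares) and CEBPA (triangles), 1 pooled value per group, with a dotted line at 1 FPKM. FPR1, CD14 and FCER1G cross this line only in CEBPA, while FCGR2A peaks in P30 at 77.2 FPKM and TYROBP stays between 7.07 and 9.18.

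Since FPKM is per transcript length, levels may be set side by side between genes. In CTR the order was MYD88, FCGR2A, TYROBP, FCER1G, CD14 and FPR1. In P30 FCGR2A moved above MYD88, with a ratio of the FPKM of FCGR2A to that of MYD88 of 2.19, against 0.817 in CTR and 1.26 in CEBPA. In CEBPA FPR1 moved from the last place to the third, above TYROBP. Without replicate values, it is not known which neighbors in these orders differ beyond their spread. TYROBP exceeded FCER1G in each group, but the ratio of their FPKM was 12.8 in CTR, 39.7 in P30 and only 2.25 in CEBPA. The ratio of FCER1G to FCGR2A was 0.0238 in CTR, 0.00299 in P30 and 0.0653 in CEBPA, so the γ chain stayed far below the IgG receptor.

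In CEBPA vs CTR, 3 of the 6 genes with a row (FPR1, FCER1G and FCGR2A) were at least 2-fold higher, where 14.0% of all genes compared were, and 0 were lower, where 6.92% of all genes were (21.0% in either direction). The median log2 difference of the 6 genes was 1.05, beside -0.01 over all genes. FPR1, FCER1G and CD14 passed the filter through CEBPA alone, so that they could only stand higher there, and the count is a description. In CEBPA vs P30, 2 of the 6 (FPR1 and FCER1G) were at least 2-fold higher, beside 13.1% of all genes, and 0 were lower, beside 5.79% (18.9% in either direction). The median of the 6 genes was 0.58, beside -0.04 over all genes. FPR1, FCER1G and CD14 passed the filter of this pair through CEBPA alone too, so that they could only stand higher there, and this count is likewise a description.

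In P30 vs CTR, 1 gene (FCGR2A) was at least 2-fold higher, where 1.02% of all genes were, and 0 were lower, where 0.613% were (1.63% in either direction). FPR1, CD14 and FCER1G did not exceed 1 FPKM in CTR or P30, and 3 of the 6 genes remained for this comparison, with log2 differences from 0.30 to 1.69. Both comparisons with CTR share its libraries, and both comparisons with CEBPA share those of CEBPA.

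**Figure D2:**
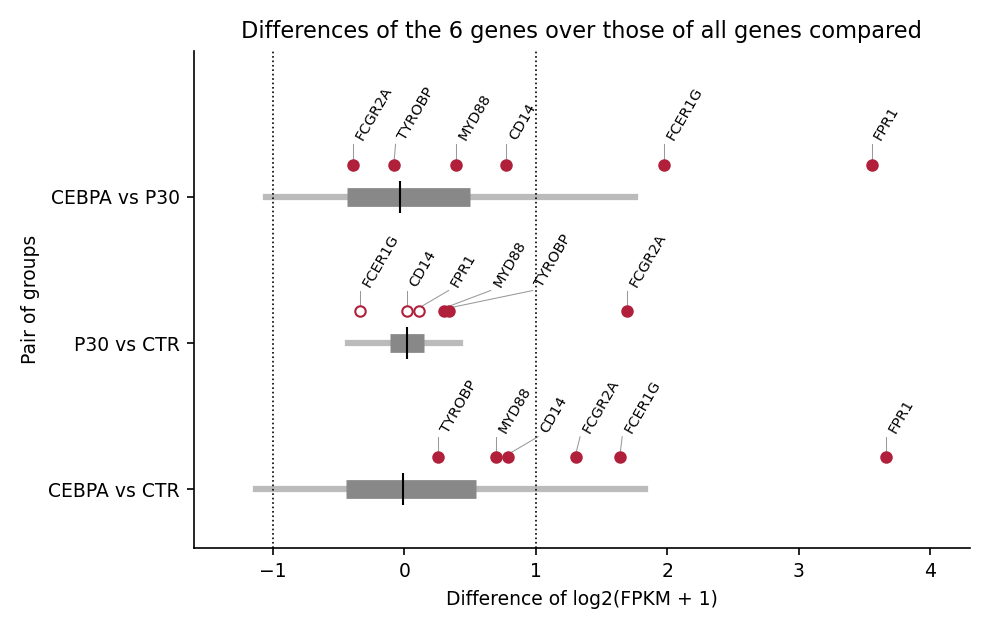
Difference of log2(FPKM + 1) for each gene (points) in the 3 pairs of groups, over the range of all genes compared: thick bars run from the 25th to the 75th percentile, thin lines from the 5th to the 95th, and the tick is the median. Open points did not exceed 1 FPKM in the pair, dotted lines mark 2-fold, and FCGR2A alone lies past 2-fold in P30 vs CTR while FPR1 and FCER1G lie past it in both comparisons of CEBPA.

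Promoter sequences were taken from RefSeq (build GRCh38.p14), where all 8 genes of the list had an entry of 300 bases, from 250 before to 50 after the start site. These start sites were not compared with the ends of the gene spans given above, and the 2 sources may place them apart. Those of the 3 genes at least 2-fold higher in CEBPA vs CTR are shown, since C/EBPα acts by binding DNA. Capitals mark matches on either strand to TTNNGNAA, a wide form of the C/EBP site. FPR1 is on the minus strand (chr19:51751829-51752128), FCGR2A on the plus strand (chr1:161505207-161505506) and FCER1G on the plus strand (chr1:161215045-161215344), and each sequence is written 5′ to 3′ along its gene:
FPR1: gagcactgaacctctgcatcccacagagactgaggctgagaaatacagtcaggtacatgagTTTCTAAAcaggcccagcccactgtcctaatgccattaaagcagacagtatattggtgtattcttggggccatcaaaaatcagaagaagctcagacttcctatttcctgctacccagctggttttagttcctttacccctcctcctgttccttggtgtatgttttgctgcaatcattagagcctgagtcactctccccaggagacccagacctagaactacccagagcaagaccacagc
FCGR2A: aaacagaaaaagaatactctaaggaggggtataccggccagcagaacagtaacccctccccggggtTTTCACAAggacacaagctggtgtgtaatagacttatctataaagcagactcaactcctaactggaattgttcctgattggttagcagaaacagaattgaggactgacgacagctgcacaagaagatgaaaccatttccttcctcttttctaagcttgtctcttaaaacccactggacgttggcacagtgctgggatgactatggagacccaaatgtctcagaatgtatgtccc
FCER1G: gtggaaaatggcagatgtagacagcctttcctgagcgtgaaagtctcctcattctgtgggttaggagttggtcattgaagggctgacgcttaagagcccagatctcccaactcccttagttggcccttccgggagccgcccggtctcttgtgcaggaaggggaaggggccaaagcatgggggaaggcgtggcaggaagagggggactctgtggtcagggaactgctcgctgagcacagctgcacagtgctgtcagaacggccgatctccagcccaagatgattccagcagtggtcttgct

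A narrower form, TTGCNNAA, was searched first, on both strands, and was in the promoter of 0 of the 8 genes, beside 10.5% of 35116 promoters. The wide form, which covers these sites and was searched after that result, was in 36.8% of all promoters. It started at position -189 of FPR1, counted from the start site, at -184 of FCGR2A and at -33 of CD14, and had no match in FCER1G, TYROBP, MYD88, TLR2 or TLR4. The CCAAT box (CCAAT on either strand) was in 34.6% of promoters and in those of FPR1, FCGR2A and TLR4. GAGGAA, a form of the site for ETS factors such as PU.1, was in 27.9% and in those of CD14, FCGR2A, MYD88, TLR4 and TYROBP. It is longer than the GGAA core of ETS sites, and that core and other forms were not searched. A match of letters is not a bound site, and sites outside these windows were not searched.

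The chemoattractant receptors related to FPR1 were compared next, with 11 genes listed, 7 with a row and 6 over 1 FPKM in CEBPA or CTR. Of these 6, 4 were at least 2-fold higher in CEBPA vs CTR and 0 lower, with a median of 2.05, beside 14.0% and 6.92% of all genes. FPR2, C5AR1, PTAFR and CCR1 passed the filter through CEBPA alone, so that they could only stand higher there. FPR2, the neighboring formyl peptide receptor, had 0.0242 FPKM in CTR cells, 0.300 in P30 cells and 13.9 in CEBPA cells, levels close to those of FPR1. FPR3, the last member of that family, had 0.527, 0.567 and 0.280 FPKM and so did not follow them. C3AR1, the receptor of the complement fragment C3a, had 2.42, 3.99 and 75.0 FPKM. Between P30 and CTR, 2 genes were compared and 0 passed 2-fold, beside 1.63% of all genes. FPR1 and FPR2 lie on opposite strands and their spans overlap in the later annotation, with 0 bp of shared exon. The same holds for FPR1 and FPR3.

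The genes that carry the signal of these receptors were counted in the same way. Of 10 such genes with a row (12 listed), 0 were at least 2-fold higher in CEBPA vs CTR and 4 lower (GNAI2, PLCB2, PLCB3 and RAC2), with a median of -0.64. The shares of all genes were 14.0% higher and 6.92% lower. PLCB2, a phospholipase C activated by G protein βγ subunits, had 15.9 FPKM in CTR cells, 17.7 in P30 cells and 2.96 in CEBPA cells, and PLCB3 20.5, 18.1 and 9.16. GNB2, a G protein β subunit and the most abundant of them, had 211, 210 and 152 FPKM. Between P30 and CTR, 1 of the 10 (PIK3CG) was at least 2-fold higher and 0 lower, beside 1.02% and 0.613% of all genes.

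Among other Fc receptors, 12 were listed, 8 had a row and 6 were over 1 FPKM in CEBPA or CTR, with a median of 1.89. Of these 6, 4 (FCGR1A, FCGR1B, FCGR3A and FCAR) were at least 2-fold higher in CEBPA vs CTR and 0 lower, beside 14.0% and 6.92% of all genes. The 4 passed the filter through CEBPA alone, so that they could only stand higher there. FCGR3A, a low-affinity IgG receptor, had 0.878 FPKM in CTR cells, 0.648 in P30 cells and 52.7 in CEBPA cells. FCAR, the receptor of IgA, was listed at 0 in CTR, against 0.0295 FPKM in P30 and 11.3 in CEBPA. FCGR1A and FCGR1B are near-identical copies of each other, as are FCGR3A and FCGR3B, of which the last was not analysed here, so these levels are uncertain where reads were shared. Only 3 genes of the list could be compared for P30 vs CTR, and 0 passed 2-fold, beside 1.63% of all genes. FCGR2A was therefore at least 2-fold higher in both lines, while FCGR3A reached that only in CEBPA. That contrast was not tested.

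FCGR1A, FCGR3A and FCAR reach the surface together with the γ chain, and these 3 partners of FCER1G, chosen after their values were seen, were summed. The sum was 1.01 FPKM in CTR cells, 1.62 in P30 cells and 68.9 in CEBPA cells. FCER1G was higher in CEBPA too, but less than the sum of these 3. The ratio of that sum to FCER1G was 1.82 in CTR, 7.01 in P30 and 17.9 in CEBPA. FCER1G was below 1 FPKM in CTR and P30, so the ratios there rest on low values. Other ITAM-coupled receptors were left out of the sum, among them OSCAR and LILRA2, which stayed below 1 FPKM in each group.

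Of 16 other signaling adaptors and ITAM-coupled receptors, 7 had a row and only 2 (HCST and TREM1) were over 1 FPKM in CEBPA or CTR. Both were at least 2-fold higher in CEBPA vs CTR, with a median of 1.74, beside 14.0% of all genes. They passed the filter through CEBPA alone, so that they could only stand higher there. HCST, the adaptor also called DAP10, which has no ITAM itself, had 0.392 FPKM in CTR cells, 0.766 in P30 cells and 4.16 in CEBPA cells. HCST and TYROBP lie tail to tail on chromosome 19, on opposite strands with 23 bp between their annotated ends, and differed in pattern, TYROBP having nearly the same level in each group. TREM1, an activating receptor that pairs with TYROBP, had 0.00795, 0.104 and 2.02 FPKM. Neither CTR nor P30 had a gene of this list over 1 FPKM.

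Of 15 inhibitory receptors, which dampen ITAM signals, 7 had a row and 6 were over 1 FPKM in CEBPA or CTR. Of these, 3 (CLEC12A, CLEC4A and LAIR1) were at least 2-fold higher in CEBPA vs CTR and 1 (CD33) lower, with a median of 0.87, beside 14.0% and 6.92% of all genes. The 3 passed the filter through CEBPA alone, so that they could only stand higher there. CLEC12A, a C-type lectin of myeloid cells, had 0.0107 FPKM in CTR cells, 0.197 in P30 cells and 50.8 in CEBPA cells, and LAIR1, a collagen receptor, 0.00674, 0.617 and 27.4. CD33, a sialic acid binding lectin, had 30.8, 38.9 and 14.8 FPKM, and PILRA, the most abundant of the list, 73.8, 80.5 and 59.8. For P30 vs CTR 5 were compared, and 1 of them (CD300A) was at least 2-fold higher and 0 lower, beside 1.02% and 0.613% of all genes. CD300A passed the filter through P30 alone, so that it could only stand higher there.

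Downstream of the ITAM, 14 of 15 listed genes had a row and all 14 were over 1 FPKM in CEBPA or CTR. In CEBPA vs CTR 2 were at least 2-fold higher (FGR and BLNK), 2 lower (CARD9 and INPP5D) and 10 neither, with a median of -0.31. With 14.0% of all genes higher, a count of 2 in 14 is near the background, and 6.92% of all genes were lower. FGR and BLNK passed the filter through CEBPA alone, so that they could only stand higher there. FGR, a Src family kinase of myeloid cells, had 0.0486 FPKM in CTR cells, 0.219 in P30 cells and 53.9 in CEBPA cells. BLNK, an adaptor, had 0.0147, 0.0306 and 7.38 FPKM. CARD9, which links ITAM receptors to NF-κB, had 18.2, 15.5 and 6.45 FPKM, and the lipid phosphatase gene INPP5D 17.9, 23.6 and 7.02. BTK, a Tec family kinase, had the highest level of the list in CTR and P30, with 68.7, 86.7 and 44.9 FPKM in CTR, P30 and CEBPA, and in CEBPA FGR and LYN were above it. For P30 vs CTR 12 were compared, and 0 passed 2-fold in either direction, beside 1.63% of all genes.

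Of 16 other Toll-like receptors, co-receptors and chaperones, 10 had a row and were over 1 FPKM in CEBPA or CTR, with a median of 0.34. Of these, 2 (TLR7 and TLR8) were at least 2-fold higher in CEBPA vs CTR and 0 lower, beside 14.0% and 6.92% of all genes. TLR7 and TLR8 passed the filter through CEBPA alone, so that they could only stand higher there. TLR8, an endosomal receptor of single-stranded RNA, had 0.0265 FPKM in CTR cells, 0.0119 in P30 cells and 1.96 in CEBPA cells, and TLR7, its close relative, 0.00877, 0.0214 and 1.07. Partners of the receptors that were not analysed were looked at after their values had been seen: TLR1, which pairs with TLR2, had 1.67, 1.94 and 4.23 FPKM, and LY96, the co-receptor of TLR4 that receives lipopolysaccharide from CD14, had 1.70, 2.06 and 2.10. HSP90B1, a chaperone of the endoplasmic reticulum that Toll-like receptors need for folding and the most abundant of the list, had 282, 274 and 511 FPKM. For P30 vs CTR 8 were compared, and 0 passed 2-fold, beside 1.63% of all genes.

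The genes that work with MYD88 were counted in the same way. Of 19 other genes between the Toll-like receptors and NF-κB or IRF factors, 17 had a row and were over 1 FPKM in CEBPA or CTR, 2 were at least 2-fold higher in CEBPA vs CTR and 0 lower, with a median of 0.14. With 14.0% of all genes higher, a count of 2 in 17 is near the background. The 2 were MAP3K7, the kinase TAK1, with 24.9 FPKM in CTR cells, 28.7 in P30 cells and 63.0 in CEBPA cells, and TAB3, its binding partner, with 11.0, 12.4 and 26.6. IRAK1, a kinase that MYD88 recruits through IRAK4, had 78.7, 82.6 and 57.3 FPKM, the highest level of the list in CTR and P30, while MAP3K7 and UBE2N were above it in CEBPA. None of the 17 passed 2-fold in P30 vs CTR, beside 1.63% of all genes, and their median was 0.10. Of 10 brakes on the pathway, 9 had a row and 8 were over 1 FPKM in CEBPA or CTR, with a median of 0.07. In CEBPA vs CTR 1 of these was higher and 2 lower, beside 14.0% and 6.92% of all genes. TNFAIP3, the ubiquitin-editing enzyme A20, had 2.05, 1.90 and 18.7 FPKM, SOCS1, an inhibitor of cytokine signals, 7.47, 7.07 and 1.58, and SIGIRR, an inhibitory receptor of the same superfamily, 49.8, 39.9 and 23.2. None of the 8 passed 2-fold in P30 vs CTR, beside 1.63% of all genes, and their median was -0.07.

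Over the 10 lists together, 141 genes were listed, 100 had a row and 87 were over 1 FPKM in CEBPA or CTR. In CEBPA vs CTR 21 (24.1%) of the 87 were at least 2-fold higher and 10 (11.5%) lower, beside 14.0% and 6.92% of all genes compared, and their median was 0.20. In 17 of the 21 the CTR level was at or below 1 FPKM, which was so for 971 of the 1921 genes higher over all genes compared. For CEBPA vs P30 87 were compared as well, 21 (24.1%) of them higher and 13 (14.9%) lower, beside 13.1% and 5.79% of all genes. In 15 of these 21 the P30 level was at or below 1 FPKM, as in 921 of the 1780 genes higher over all genes. Between P30 and CTR, 3 of 71 (4.23%) were at least 2-fold higher and 0 lower, beside 1.02% and 0.613% of all genes. With a pseudocount of 0.1 these counts were 5 higher and 2 lower, and the share of all genes past 2-fold in either direction was 3.10%, against 1.63%. At the main setting, the CTR level was at or below 1 FPKM in 1 of the 3 higher in P30. This was so for 55 of the 126 genes higher over all genes.

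**Figure D3:**
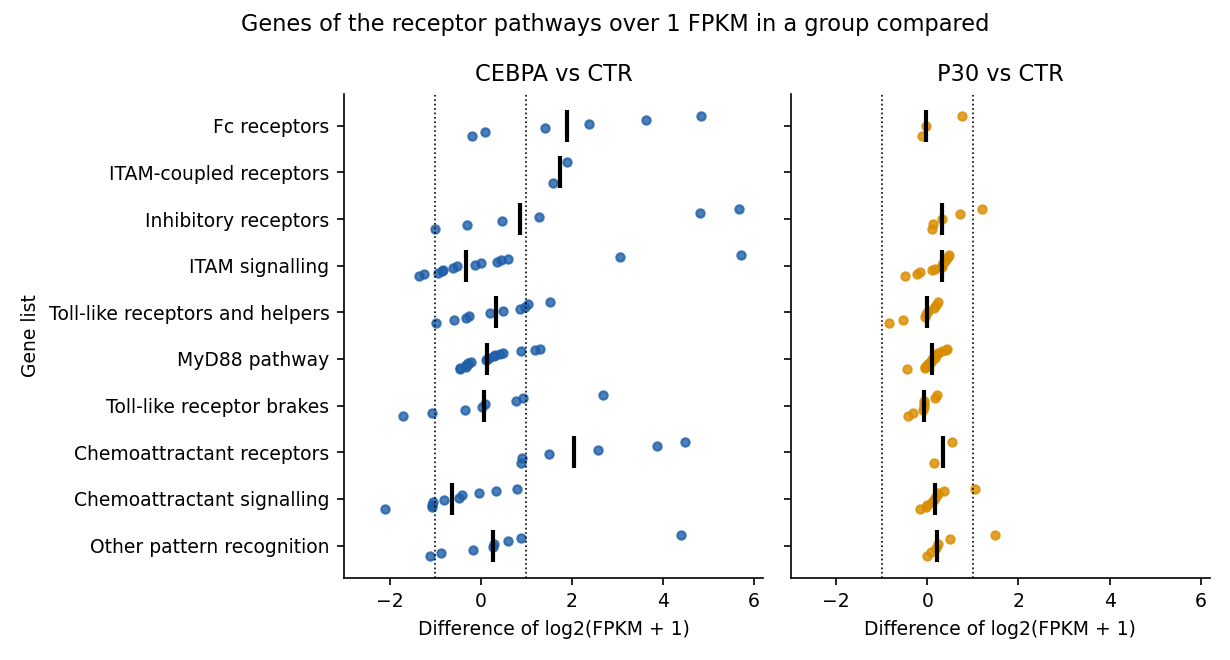
Difference of log2(FPKM + 1) for the genes of the 10 pathway lists (points, 1 per gene; tick, median of a list) in CEBPA vs CTR (left) and P30 vs CTR (right), for genes over 1 FPKM in a group compared, with dotted lines at 2-fold. In CEBPA the points furthest right are FGR (5.71) of the ITAM signaling list and CLEC12A (5.68) of the inhibitory receptors, the Toll-like receptor list ends at TLR8 (1.53), and list medians run from -0.64 to 2.05. In P30, 3 points lie past the 2-fold limits.

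The genomic neighborhood of FCGR2A was examined for genes within 100 kb on either side, and 3 had a row. HSPA6, a heat shock protein gene 526 bp downstream on the same strand, had 0.462 FPKM in CTR cells, 2.59 in P30 cells and 7.22 in CEBPA cells. HSPA7, a related pseudogene, had 3.03, 7.50 and 1.56 FPKM. FCGR3A was described above. HSPA6 and HSPA7 were both at least 2-fold higher in P30 vs CTR, as were FCGR2A and 1.02% of all genes. Both were picked out after their values were seen, and HSPA6 passed the filter of that pair through P30 alone. Around CD14, 9 genes within 100 kb had a row and were over 1 FPKM, and 0 passed 2-fold in any pair. Of all genes, 21.0% passed it in CEBPA vs CTR, 1.63% in P30 vs CTR and 18.9% in CEBPA vs P30. Around FCER1G, 12 genes were over 1 FPKM in CEBPA or CTR, 0 of them at least 2-fold higher in CEBPA and 2 lower (PPOX and USP21). For this pair, 14.0% of all genes were higher and 6.92% lower. Near TYROBP, 4 genes were over 1 FPKM in CEBPA or CTR, with HCST at least 2-fold higher and APLP1 lower. Near MYD88, 3 were, of which DLEC1, 14526 bp away, was at least 2-fold higher, from 0.0759 FPKM in CTR to 2.13 in CEBPA.

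The genes whose 3 levels were most like those of each receptor were found by the Euclidean distance over the 3 values of log2(FPKM + 1), among 13693 genes over 1 FPKM in at least 1 group. For FPR1 these were DPYD (distance 0.12), an enzyme of pyrimidine breakdown, and PADI4 (0.12), a peptidylarginine deiminase of neutrophils, and 53 genes lay within 0.5. For FCER1G they were GPX8 (0.12) and TNFSF13B (0.16), with 84 genes within 0.5. FCGR2A had no gene within 0.5, and the nearest were TNFAIP8 (0.57) and CETN2 (0.65), neither of which was highest in P30. The pattern of TYROBP was shared by 519 genes within 0.5, nearest MNT and CCP110, that of CD14 by 422, nearest EPHA1-AS1 and TMEM169, and that of MYD88 by 280, nearest BNIP2 and SPAG9. With 3 points per gene, likeness is only a description.

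Some of these genes are also expressed by cells other than phagocytes, and markers of such cells were examined, each list by its summed FPKM in CTR, P30 and CEBPA. T cell markers (2 of 4 with a row) summed to 7.42, 6.89 and 2.66, and B cell markers (2 of 4) to 7.98, 8.0 and 1.80. NK cell markers (2 of 4), cells that also use TYROBP, summed to 0.509, 1.74 and 3.74, with GNLY listed at 0 in P30. Mast cell and basophil markers (2 of 4), cells that use FCER1G, summed to 0.901, 0.601 and 1.38. Platelet markers (4 of 4), cells that carry FCGR2A and FCER1G, summed to 12.7, 13.4 and 63.7, of which the chemokine gene PPBP made up 51.1 FPKM in CEBPA, with GP9 at 0 in CTR and PF4 at 0 in P30. Monocyte and macrophage markers (3 of 5) summed to 506, 582 and 433, nearly all of it from the lysosomal gene CD68, while CSF1R had 0.111, 1.54 and 1.79 FPKM and CD163 0.912, 1.21 and 0.757. The part of any such cells in the levels of the receptors was not tested.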

How the data were processed

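The 6 K562 samples comprised 2 replicates for every line (CTR, CEBPA, P30), grouped by their titles in the labels. The authors deposited FPKM values in 3 tables, 1 per pair of groups, with 1 value per gene and group and the replicates pooled. Per the authors' methods, reads were aligned to hg19 with TopHat 2.0.12, assembled with Cufflinks 2.2.1 on Gencode 19 and quantified with Cuffdiff 2.2.1. The replicates came from separate runs on different instruments, and the setting of the library normalization, the use of strand in quantification and the rule that selected the rows are not given in the sources used here. Pooling hides any difference between the runs, and depth per sample is unknown from the FPKM.

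Rows were joined across tables by symbol, 43 repeated symbols were left out of joined values, and for the others 0 symbols had values that clashed between tables. Differences of log2(FPKM + 1) were computed among genes over 1 FPKM in either group of the pair, and 2-fold was the call. No test was run, because each group has 1 pooled value. The 8 genes, the pathway lists and the markers were chosen with earlier results of these data known. The genes named are the 8, from each list the 2 largest rises and the 2 largest falls of at least 2-fold in CEBPA vs CTR and the gene with the highest FPKM in any group, the markers, and the 2 genes most like each receptor. Others named are those that make up a count, and neighbors chosen after their values were seen. Positions are from Gencode on GRCh37, a later release than the authors', and promoters from a RefSeq table on GRCh38.p14. The calls were run on simulated data, with changes larger than 2-fold planted only in genes over 5 FPKM in CTR and little noise. This checks the code and not the calls of low genes such as FPR1, CD14 and FCER1G. Alternatives were a pseudocount of 0.1, centering, no filter, a filter at 5 FPKM, summed rows and genes listed in all 3 tables. Python 3.11.15, numpy 2.4.6, pandas 2.3.3 and matplotlib 3.10.9 were used.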

Additional observations from a re-analysis of the deposited data

How the results depend on the processing

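No paired analysis was possible because replicates were pooled into a single FPKM per line. A replicate block and leaving out each replicate could therefore not be run. A log2 value counted as moved past a change of 0.20, the scaled median absolute deviation of P30 vs CTR over all genes, and a count or percentage past 1.5 times, which are working limits. Of 185 values recomputed for 33 results, 165 did not move, 20 did and 0 reversed. A change of sign counted as reversed only for a log2 value of at least 2-fold at the main setting. Centering, no filter and summed rows moved none, although on centering CD14 in P30 vs CTR went from 0.016 to -0.007. The causes were not tested beyond the sets of genes counted. With pseudocount 0.1 the median of the 6 genes was 1.63 for CEBPA vs CTR and 1.14 for CEBPA vs P30. FPR1 then differed by 6.0 and 5.49 in these pairs, FCER1G by 2.59 and 3.57, and CD14 by 1.93 and 1.87. In P30 vs CTR, FCER1G differed by -0.98 with that pseudocount. With a filter at 5 FPKM, or with only genes listed in all 3 tables, 4 genes were left in CEBPA vs P30. The sets differed, since the filter left out FCER1G and CD14 and the other setting FPR1 and CD14. The 1 gene at least 2-fold higher was FPR1 under the filter and FCER1G under the other setting. The median was 0.16 under both settings. The pathway lists had 13 genes at least 2-fold higher in CEBPA vs CTR under either of these settings.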

Other observations

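Pattern recognition outside the Toll-like family had 11 of 15 listed genes with a row. NLRC4, an inflammasome sensor of bacterial flagellin and secretion systems, had 0.227 FPKM in CTR cells, 0.375 in P30 cells and 25.0 in CEBPA cells, the largest rise of that list in CEBPA vs CTR. TMEM173, the DNA-sensing adaptor STING and the most abundant of the list, had 71.0, 71.1 and 32.2 FPKM. PYCARD, the inflammasome adaptor ASC, had 5.68, 17.6 and 2.65 FPKM, and so was at least 2-fold higher in P30 vs CTR and lower in CEBPA vs P30.

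Beside FCGR2A, 3 genes of the 10 lists were at least 2-fold higher in P30 vs CTR, and they are named as the members of that count. They were PYCARD, CD300A and PIK3CG. CD300A, an inhibitory receptor, had 0.520 FPKM in CTR cells, 2.52 in P30 cells and 0.512 in CEBPA cells. PIK3CG, the catalytic subunit of phosphoinositide 3-kinase γ, had 6.95, 15.5 and 12.8 FPKM. All 3 were higher in P30 than in CEBPA, as FCGR2A was. Over all genes, 126 were at least 2-fold higher in P30 vs CTR, of which 73 were so in CEBPA vs CTR as well and 65 were higher in P30 than in CEBPA. Each gene here has 1 pooled value per group, so these orders have no replicate check.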
